A study of Saccharomyces cerevisiae with 47 samples.

Results

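The genes described here are 55 budding yeast genes that encode the core DNA replication machinery, out of 6002 protein-coding nuclear genes in the R64 annotation. They were taken by name, from the origin recognition complex to the topoisomerases, and not by a measured value. The choice was made with earlier results of these data known. For each gene the deposited Reb1 and Abf1 sites were sought within 500 bp upstream of its start codon. Of the 55 genes, 10 had a site and each of these had exactly 1, with 5 genes carrying Reb1 and 5 carrying Abf1.

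Replication begins when the origin recognition complex, helped by Cdc6 and Cdt1, loads the ring-shaped MCM helicase on origin DNA, a step called licensing. In S phase the Dbf4-dependent kinase and a set of firing factors recruit Cdc45 and GINS to the helicase, and DNA polymerases then copy the strands behind it, held to DNA by a sliding clamp that a clamp loader opens and closes. Reb1 and Abf1 are general regulatory factors, which bind defined motifs in many yeast promoters and keep nucleosomes off them. Abf1 takes its name from binding to ARS elements, the sequences that act as origins, but origins themselves were not analysed here.

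The study rebuilt chromatin from plasmid library DNA and recombinant yeast histones, with no cells involved, and mapped where Strep-tagged Reb1 or Abf1 was bound. Of 47 samples, 24 were pulldowns and 23 inputs, in groups of 1 or 2 replicates. In the pulldowns and the inputs, Reb1 or Abf1 at 50 nM was present with INO80, ISW2 or Chd1 at 24 nM, with RSC at 12 nM, or with no remodeler, and the controls had neither factor nor remodeler. All were crosslinked with 0.05% formaldehyde and cut with MNase. The values analysed were 1 list of sites per factor, with 942 distinct Reb1 sites and 1365 distinct Abf1 sites. Since neither list is tied to a sample, it gives no sequencing depth, no spread between replicates and no effect of a remodeler, and the exact 95% binomial (Clopper-Pearson) intervals given below cover counting error over genes only. Each site carried a score of the authors' own, with no definition, and was listed in 1 to 5 identical rows. Both lists are named as ChIP PWM peaks, and PWM usually stands for position weight matrix, a model of a motif. The score may thus describe the match to a motif rather than the strength of binding, which is not stated. No source used here says what a repeated row stands for.

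Upstream sites were somewhat less frequent at replication genes than at genes at large, by less than the counting error. A Reb1 site was present at 5 of 55 genes (9.09%, 3.02 to 20.0), against 12.5% of all protein-coding genes. An Abf1 site was likewise present at 5 of 55 (9.09%, 3.02 to 20.0), against 13.5% of all genes. Sites of either factor lay upstream of 10 of 55 genes (18.2%, 9.08 to 30.9), against 24.7% of all genes. Sites of both factors were found at 0 of 55 genes (0 to 6.49%), against 1.35% of all genes. Each of these intervals holds the share of all genes, so no departure from it was detectable with 55 genes.

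According to the series text, the DNA assembled into chromatin came from chromosomes V to IX. They carry 7 of the 55 genes, namely MCM3, MCM6, ORC6, SLD3, MCM10, PRI1 and DNA2, and 0 of the 7 had an upstream site of either factor (0 to 41.0%), against 24.0% of all genes on those chromosomes. All 10 upstream sites described below therefore lie on other chromosomes, and no source used here says whether DNA of those chromosomes was present. Each list holds sites on 16 chromosomes, and 24.7% of all genes in the genome had an upstream site.

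**Figure D1:**
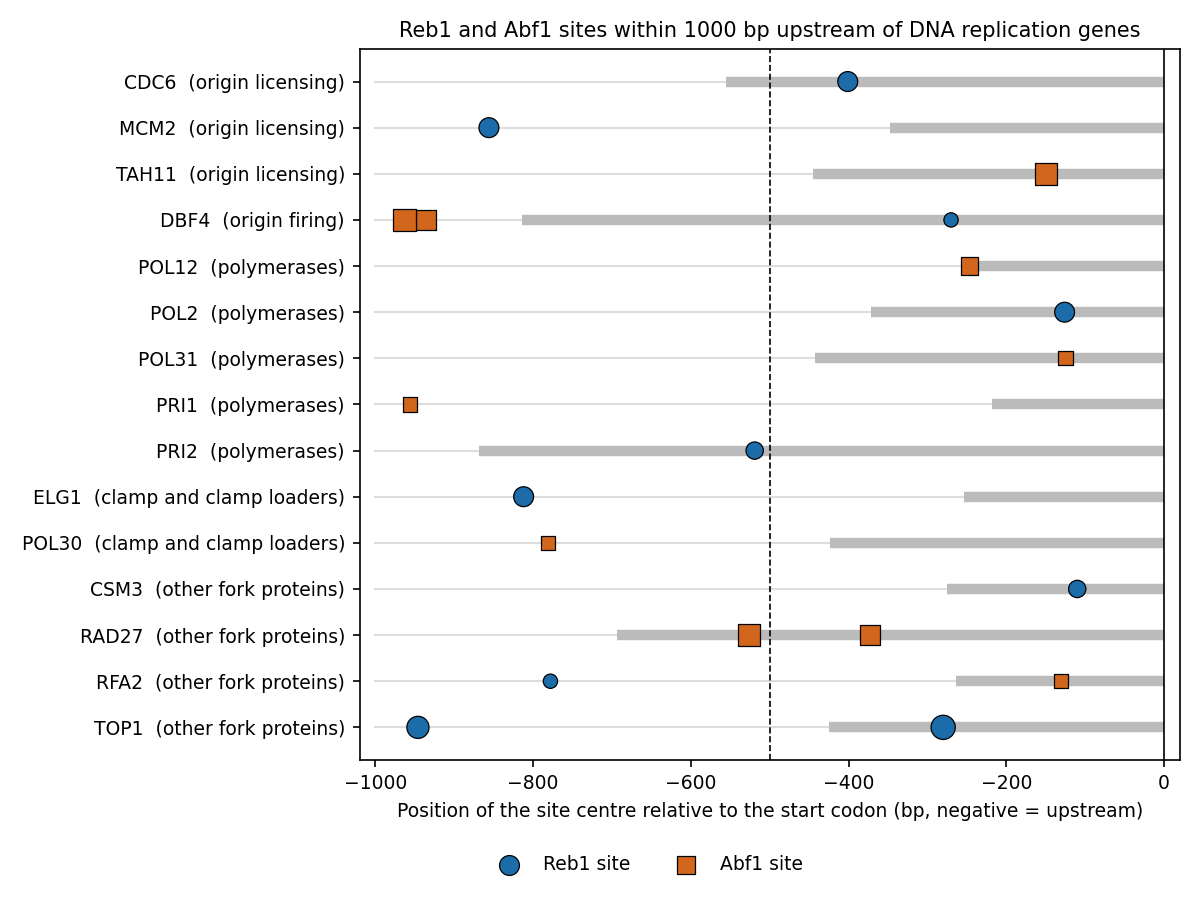
Position of each Reb1 site (circles) and Abf1 site (squares) within 1000 bp upstream of the start codon, in bp, for the 15 replication genes that have one, with larger symbols for sites listed in more rows. Thick grey bars show the stretch up to the nearest protein-coding gene upstream and the dashed line the 500 bp limit. The 10 sites inside the limit belong to 10 different genes, with CSM3, POL31, POL2, RFA2 and TAH11 at 110 to 150 bp.

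Among the licensing genes, CDC6 and TAH11 had an upstream site, and the genes of the origin recognition complex and the MCM helicase had none. CDC6, whose product is the ATPase that joins the origin recognition complex to load the helicase, had a Reb1 site on chromosome X from 68933 to 68942. It lay 401 bp upstream of the CDC6 start codon and 155 bp upstream of that of the divergent gene ELO1, which encodes a fatty acid elongase. Its score was 12.03, with 38.2% of the Reb1 list lower, and it was listed in 3 rows. The motif was on the strand of CDC6. At 401 bp this was the most distant of the 10 sites.

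TAH11, the gene of yeast Cdt1, which escorts the helicase to the origin, had an Abf1 site on the same chromosome, from 521891 to 521906. It lay 150 bp from the TAH11 start codon and 296 bp from that of SSC1, the divergent gene of a mitochondrial Hsp70 chaperone. Its score of 13.25 was above 78.1% of the Abf1 list, it stood in 4 rows, and the motif was on the TAH11 strand. CDC6 and TAH11, partners in helicase loading, thus differed in the factor and by 251 bp in distance.

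The origin recognition complex genes ORC1 to ORC6 had 0 upstream sites among 6 genes, and so did the helicase genes MCM2 to MCM7. Taken as 12 genes, 0 had a site of either factor (0 to 26.5%), an upper limit that still holds the 24.7% of all genes. Joining these complexes was a choice made after their values were seen. MCM2 came nearest, with a Reb1 site 856 bp upstream that lay inside PIM1, the gene of the mitochondrial Lon protease. With CDC6 and TAH11, licensing genes had a site of either factor in 2 of 14 cases (14.3%, 1.78 to 42.8), against 24.7% of all genes.

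Of the origin firing genes, 1 of 12 had a site (8.33%, 0.211 to 38.5), against 24.7% of all genes. This was DBF4, the regulatory subunit of the kinase that triggers firing by phosphorylating the helicase. Its Reb1 site, on chromosome IV from 560891 to 560900, lay 270 bp upstream with the motif on the opposite strand to the gene. The score of 11.14 was the lowest in the Reb1 list, a value shared by 22 sites, and the site was listed in 1 row. The nearest upstream gene, CDC34, encodes a ubiquitin-conjugating enzyme and runs in the same direction, so no divergent partner shared this site. Beyond the limit DBF4 also had Abf1 sites at 936 and 963 bp, inside the coding extent of CDC34.

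The kinase's catalytic gene CDC7 had no site within 1000 bp, its nearest upstream sites being 16697 bp away for Reb1 and 7146 bp for Abf1. The GINS genes PSF1, PSF2, PSF3 and SLD5 were also without upstream sites, as were the genes of the factors that assemble the active helicase, CDC45, SLD2, SLD3, SLD7, DPB11 and MCM10. Among these 10 genes the nearest site was the Abf1 site 1059 bp upstream of SLD5.

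Replicative polymerase genes had a site in 3 of 10 cases (30.0%, 6.67 to 65.2), against 24.7% of all genes. The complexes alpha, epsilon and delta each had 1 gene with a site. POL2, the catalytic subunit of polymerase epsilon, which copies most of the leading strand, had a Reb1 site on chromosome XIV from 148082 to 148091. It lay 126 bp upstream of POL2 and 246 bp upstream of its divergent neighbour YIF1. The score of 11.81 exceeded 23.0% of the list, and the site stood in 3 rows on the POL2 strand.

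The other polymerase genes with a site had Abf1 at accessory subunits. POL31, a non-catalytic subunit of polymerase delta, had an Abf1 site on chromosome X from 449070 to 449085, 125 bp upstream and 319 bp from the divergent gene LSO1. This site had the highest score of the 5 Abf1 sites, 14.04, above 90.7% of the list, and it was listed in 1 row. POL12, the B subunit of polymerase alpha-primase, had an Abf1 site on chromosome II from 153850 to 153865. It lay 247 bp upstream, where the stretch to the next gene is 237 bp long, and so fell inside the end of STU1, a gene of a microtubule-binding protein that runs in the same direction. It scored 12.60, above 873 of the 1365 sites of the list, in 2 rows, and was the lowest-scoring of the 5 and the one that was not intergenic. At both POL31 and POL12 the motif was on the strand opposite to the gene.

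The catalytic genes POL1 and POL3, the epsilon subunit genes DPB2 and DPB3, the delta subunit gene POL32 and the primase genes PRI1 and PRI2 had 0 sites within 500 bp. PRI2 missed the limit by little, with a Reb1 site at 519 bp (score 12.03, 2 rows) that was 350 bp from the divergent gene DCW1. PRI1 had a high-scoring Abf1 site at 956 bp, with a score of 15.55 that exceeded 99.5% of the list. That site lay beyond the neighbouring gene MSL1, and 169 bp upstream of the kinetochore gene DSN1.

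Against 24.7% of all genes, 0 of the 7 clamp and clamp loader genes had a site (0 to 41.0%). They are POL30, the gene of the sliding clamp PCNA, the loader subunit genes RFC1 to RFC5, and ELG1, whose product forms an alternative loader that takes the clamp off DNA. ELG1 had a Reb1 site at 812 bp, inside PNO1, with a score of 13.36 in 3 rows. POL30 had an Abf1 site at 781 bp, past the neighbouring gene NHP6B, inside the coding extent of YBR090C and 58 bp upstream of the NHP6B start codon, with a score of 11.24 in 1 row. The nearest upstream sites of RFC1 to RFC5 lay between 1515 bp (Reb1 at RFC4) and 29547 bp (Abf1 at RFC5). The intervals of licensing, firing, polymerase and clamp genes, at 7 to 14 genes each, overlap one another widely. A difference between these classes was not tested.

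Among the other fork proteins 4 of 12 genes had a site (33.3%, 9.92 to 65.1), against 24.7% of all genes. CSM3, which with TOF1 encodes the complex that stabilises paused forks, had the closest site of all, a Reb1 site 110 bp upstream on chromosome XIII from 366867 to 366876. Its divergent partner NUP116, a nuclear pore gene, had the same site at 166 bp. The score of 13.71 exceeded 88.7% of the list, and the site stood in 2 rows on the CSM3 strand.

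TOP1, the gene of the topoisomerase that relaxes supercoils ahead of the fork, had a Reb1 site with the same score of 13.71, a value held by 67 sites. This site, on chromosome XV from 315663 to 315672, lay 280 bp upstream on the TOP1 strand and was the only one of the 10 upstream sites listed in 5 rows. A second Reb1 site of equal score, in 4 rows, lay 946 bp from TOP1. It was on the far side of RPB11, an RNA polymerase II subunit gene that runs in the same direction, and 158 bp upstream of it. TOP1 and RPB11, next to each other, thus each had a Reb1 site in front.

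RFA2, a subunit gene of the single-strand binding protein RPA, had an Abf1 site on chromosome XIV from 48149 to 48164. It sat in the middle of a divergent promoter, 131 bp from RFA2 and 134 bp from EMW1. The score was 13.49, above 82.6% of the list, in 1 row, with the motif on the strand opposite to RFA2. RFA2 also had a Reb1 site at 778 bp, inside EMW1, with the list's lowest score and 1 row.

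RAD27, the gene of the flap endonuclease that trims Okazaki fragments, shares its promoter with ABF1 itself. An Abf1 site on chromosome XI, from 226241 to 226256, lay 373 bp from RAD27 and 322 bp from ABF1, with a score of 13.35 (above 79.4% of the list) in 3 rows. A second Abf1 site, 526 bp from RAD27 and 169 bp from ABF1, scored 11.44 in 4 rows. Both motifs were on the strand of RAD27. The coupling and checkpoint genes CTF4, MRC1 and TOF1, the ligase gene CDC9, the nuclease-helicase gene DNA2, the RPA genes RFA1 and RFA3 and the topoisomerase gene TOP2 had no upstream site within 1000 bp.

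**Figure D2:**
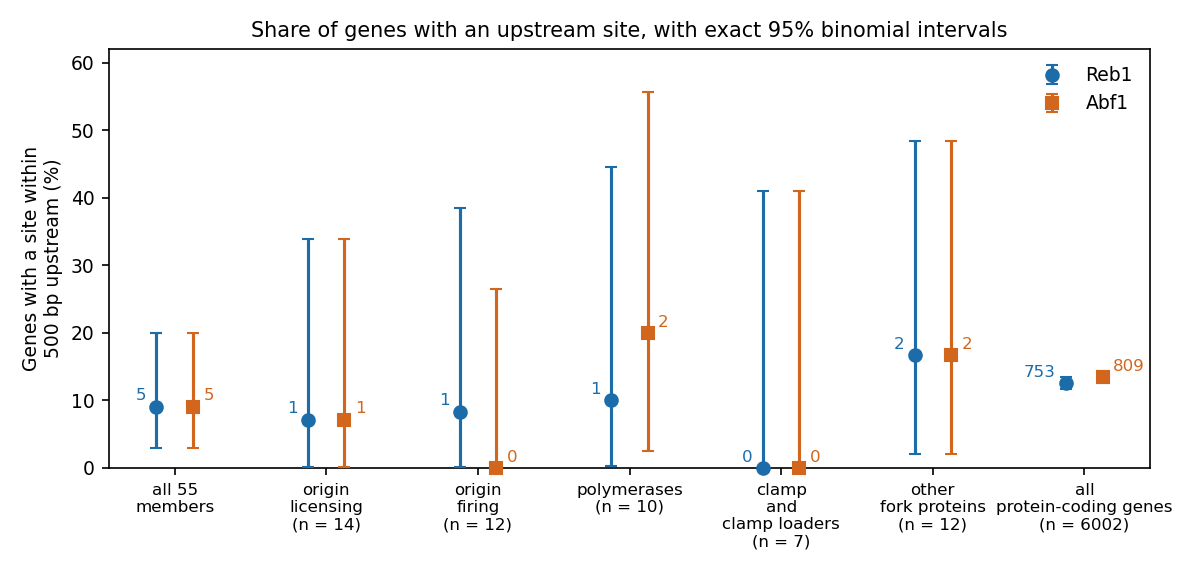
Percent of genes with a Reb1 site (circles) or an Abf1 site (squares) within 500 bp upstream, for all 55 replication genes, for each class and for all protein-coding genes, with exact 95% binomial intervals and the number of genes with a site printed beside each point. Class values run from 0% to 20.0%, and each class interval reaches past the 12.5% and 13.5% of all genes.

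The 5 Abf1 sites all scored above the list median of 11.98, and the Reb1 sites were divided around theirs. Among sites upstream of any protein-coding gene, 62.8% of the Abf1 sites and 53.7% of the Reb1 sites were above their list median. Scores of the 5 Abf1 sites ran from 12.60 to 14.04 with a median of 13.35, against a median of 12.54 over all 716 Abf1 sites upstream of a gene. With sites at or above the median score alone, all 5 genes kept their Abf1 site (9.09% of members), against 9.30% of all genes. The 5 Reb1 sites ran from 11.14 to 13.71 with a median of 12.03, against 12.60 over 641 upstream Reb1 sites. Only CSM3 and TOP1 had a Reb1 site at or above the list median of 12.26, which is 2 of 55 genes (3.64%), against 7.26% of all genes. With sites listed in at least 2 rows, 4 of 55 genes had a Reb1 site (7.27%), against 10.6% of all genes, and 3 had an Abf1 site (5.45%), against 10.9%. Scores were compared within a list, and the authors do not say how the score relates to binding.

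All 10 sites lay between 110 and 401 bp from the start codon. The Reb1 sites lay 110, 126, 270, 280 and 401 bp from the start codon of the replication gene, a median of 270 bp, against 198 bp over all 813 pairs of a gene and an upstream Reb1 site. Counted instead to the nearest start codon of any gene, the order turned, with a median of 155 bp for these 5 sites, against 186 bp for all upstream Reb1 sites. The Abf1 sites lay at 125, 131, 150, 247 and 373 bp, a median of 150 bp, against 212.5 bp over all 926 pairs. To the nearest start codon the Abf1 medians were 150 bp for these sites and 194.5 bp for all. With sites listed in at least 2 rows, the 3 Abf1 sites left had a median of 247 bp. Between 100 and 150 bp from their own gene lay 2 of the 5 Reb1 sites and 3 of the 5 Abf1 sites, against 23.1% of all Reb1 pairs and 20.5% of all Abf1 pairs. This range was not set in advance, and its upper edge is the distance of the TAH11 site, 150 bp. The contrast is therefore a description of these sites only. Either side of the 500 bp limit, the closest values were 401 bp at CDC6 and 373 bp at RAD27 inside, and 519 bp at PRI2 and 526 bp at RAD27 outside.

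**Figure D3:**
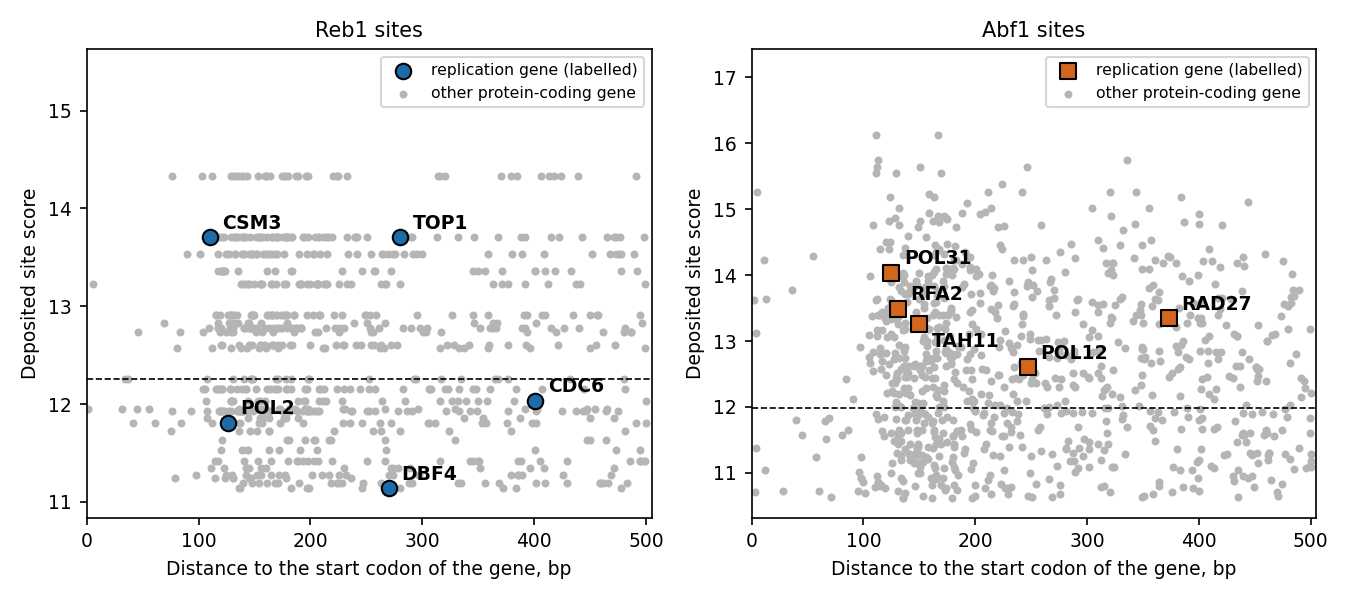
Deposited site score against distance to the gene's own start codon in bp for each pair of a gene and a Reb1 (left) or Abf1 (right) site within 500 bp upstream, with replication genes as large labelled symbols, other genes in grey and the list's median score dashed. All 5 Abf1 sites of replication genes lie above the dashed line at 11.98, and among the Reb1 sites CSM3 and TOP1 lie above 12.26. Of all upstream sites, each counted once, 62.8% for Abf1 and 53.7% for Reb1 are above the line.

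Of the 10 sites, 7 lay upstream of a gene whose nearest upstream neighbour points the other way (70.0%, 34.8 to 93.3), against 57.7% of the 1481 genes with a site over the whole annotation. The other 3 (DBF4, POL12 and TOP1) had a neighbour in tandem. In each of the 7 divergent promoters the partner's start codon was also within 500 bp of the site, and 0 of the partners was a replication gene, so these sites cannot be assigned to either gene of the pair. The member was the nearer gene in 5 of the 7 promoters, with ELO1 nearer than CDC6 and ABF1 nearer than RAD27. A divergent upstream neighbour was present at 33 of the 55 genes (60.0%), against 52.0% of all genes. Among these 33, 7 had a site (21.2%, 8.98 to 38.9), against 27.4% of all genes with a divergent neighbour. Among the 22 genes with a tandem neighbour 3 had a site (13.6%, 2.91 to 34.9), against 21.8%.

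The stretch to the next protein-coding gene upstream was somewhat shorter at replication genes, with a median of 402 bp, against 448 bp over all genes. It was at least 500 bp long at 20 of the 55 genes (36.4%), against 43.7% of all genes, so at the others the window ran on into a neighbour's coding extent. The clamp and loader genes had the fewest long stretches, 1 of 7, and the licensing genes the most, 7 of 14. The 10 genes with a site had a median stretch of 434 bp and the 45 genes without one 376 bp. Motif strand matched the gene's strand at 4 of 5 Reb1 sites, DBF4 being the exception, and at 2 of 5 Abf1 sites, those of TAH11 and RAD27, against 47.2% of all Reb1 pairs and 49.8% of all Abf1 pairs.

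Beyond the fixed window, the nearest Reb1 site upstream of a replication gene lay at a median of 9245 bp, against 7959 bp for all genes. For Abf1 the medians were 7145 bp for replication genes and 5882 bp for all genes. The spreads overlapped widely. The lower and upper quartiles for Reb1 were 2574 and 21486 bp at replication genes, against 2484 and 17867 bp at all genes. For Abf1 they were 2359.5 and 14801 bp, against 1776.5 and 13296 bp. A difference from all genes was not tested. ORC4 and RFA1 had no Reb1 site between them and the chromosome end. By class, the Reb1 median was longest for firing genes, 15510 bp, and shortest for polymerase genes, 7109 bp, and the Abf1 median ran from 4845 bp for polymerase genes to 9505 bp for clamp genes. The ranges overlapped in every class, for instance 270 to 39323 bp for Reb1 at firing genes and 126 to 118105 bp at polymerase genes. Within 1000 bp, 9 of 55 genes had a Reb1 site (16.4%, 7.77 to 28.8), against 16.3% of all genes, and 8 had an Abf1 site (14.5%, 6.50 to 26.7), against 18.7%. A site of either factor was present at 15 genes (27.3%, 16.1 to 41.0), against 31.5%, and 40 had none. At that width DBF4 and RFA2 had sites of both factors, which is 2 of 55 genes (3.64%), against 3.58% of all genes.

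**Figure D4:**
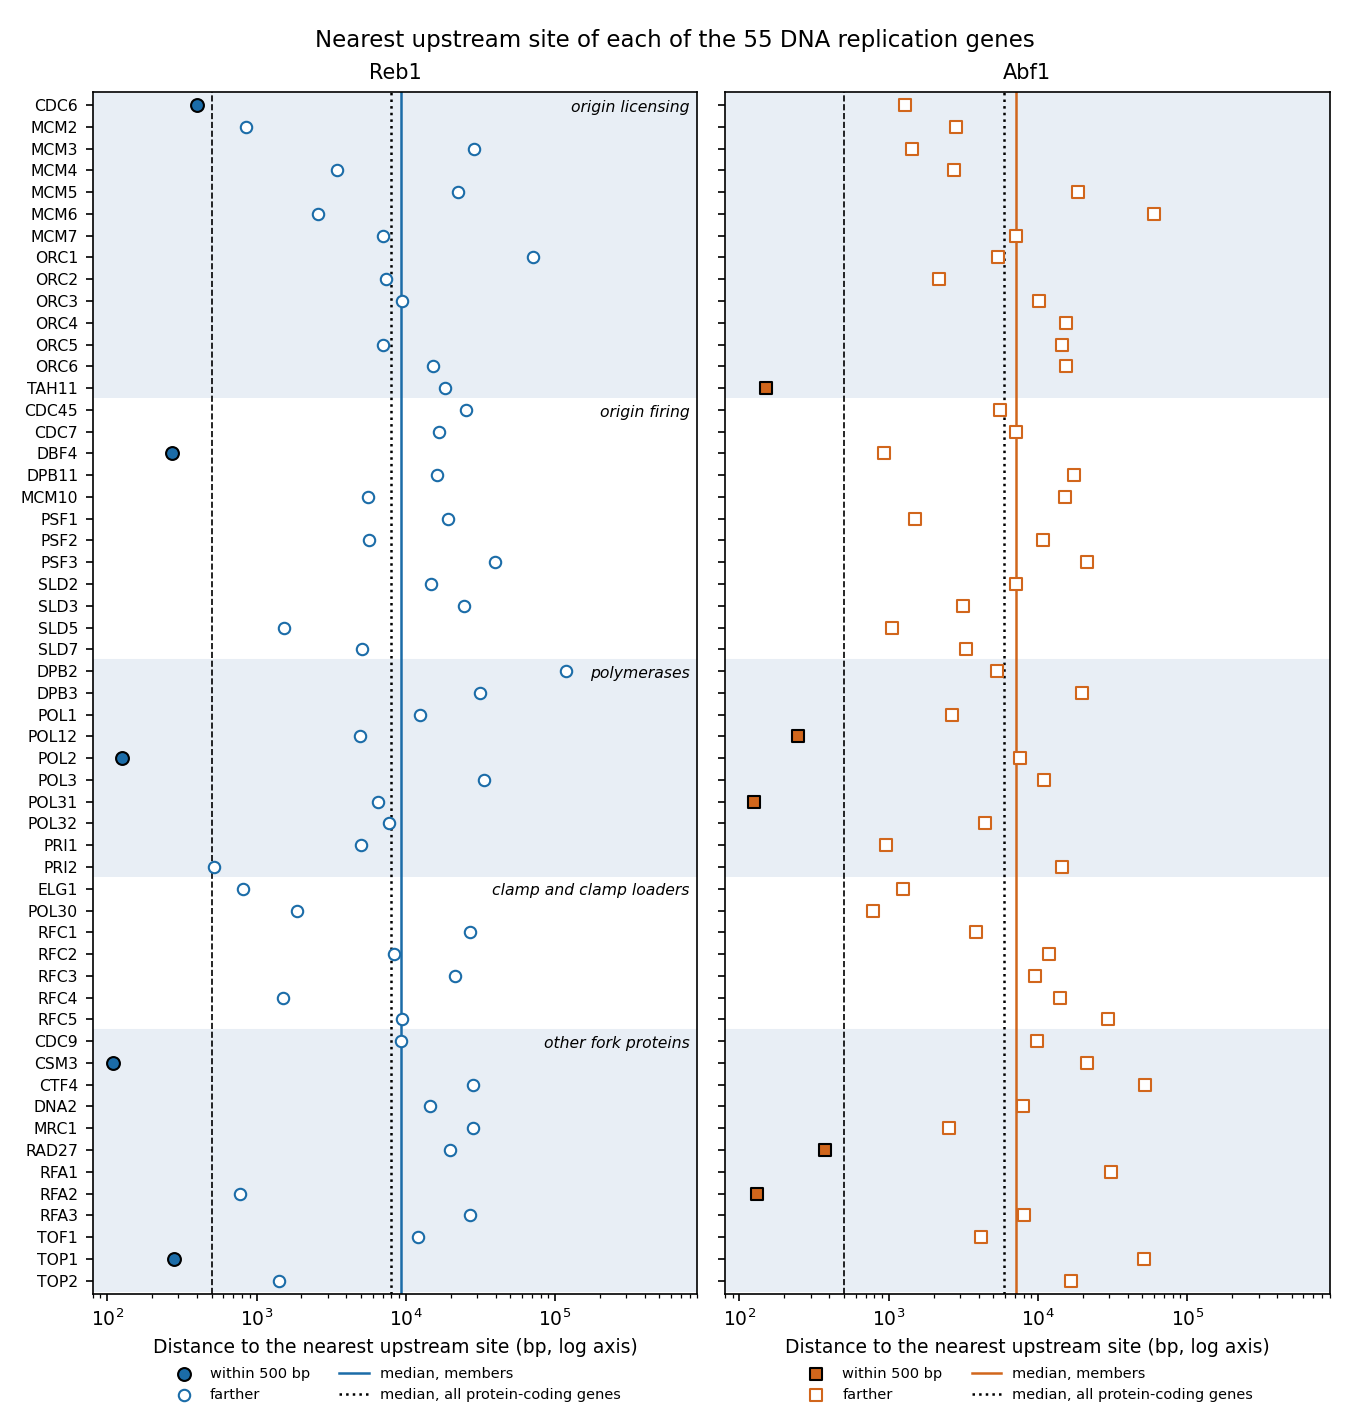
Distance in bp (log axis) to the nearest upstream Reb1 (left) and Abf1 (right) site for each of the 55 replication genes, grouped by class, with filled symbols for sites within the dashed 500 bp line and vertical lines for the median of members (solid) and of all protein-coding genes (dotted). The member medians, 9245 bp for Reb1 and 7145 bp for Abf1, are each to the right of those of all genes, and ORC4 and RFA1 have no Reb1 point.

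Some replication genes held sites inside their own coding extents, a count separate from that of upstream sites. Of the 55 genes, 3 held a Reb1 site inside (5.45%, 1.14 to 15.1), against 3.60% of all genes, and 5 held an Abf1 site (9.09%, 3.02 to 20.0), against 8.68%. The licensing genes, with 0 upstream sites at ORC and MCM genes, held sites inside 5 of 14 genes (35.7%, 12.8 to 64.9), against 11.4% of all genes. Coding length enters this count, and of all genes of 1308 to 3054 bp, the range of the licensing genes, 14.0% held a site inside. This class was singled out after its values were seen, and the lower bound of its interval is below that share.

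MCM5 and MCM7, subunit genes of the helicase, each held a Reb1 site in 5 rows, with scores of 12.16 and 12.57. The site was 1198 bp into MCM5 and 2390 bp into MCM7, 94.2% of the way through the MCM7 coding extent. MCM2 held an Abf1 site 1208 bp in, scoring 11.11. ORC1, an ATPase subunit gene of the origin recognition complex, held Abf1 sites 172 and 1690 bp in, with scores of 11.62 and 10.75 in 1 row each. ORC6, on chromosome VIII from 344443 to 344458, held the single site found within a replication gene on chromosomes V to IX, an Abf1 site 1178 bp in, scoring 10.95 in 3 rows. Outside licensing, SLD5 (11.38) and PRI2 (11.84) held 1 Abf1 site each and TOP2 1 Reb1 site (12.74). All 6 Abf1 sites inside replication genes scored below the list median of 11.98, and all 5 upstream ones above it. The whole Abf1 list leaned the same way less sharply. There, 66.7% of the 658 sites inside a protein-coding gene were below the median and 62.8% of the 716 upstream sites were above it. Reb1 sites of replication genes went the other way, with 2 of 3 inside above the Reb1 median and 3 of 5 upstream below it. Over the whole Reb1 list, 56.25% of 224 sites inside a gene were below the median and 53.7% of 641 upstream sites above it.

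**Figure D5:**
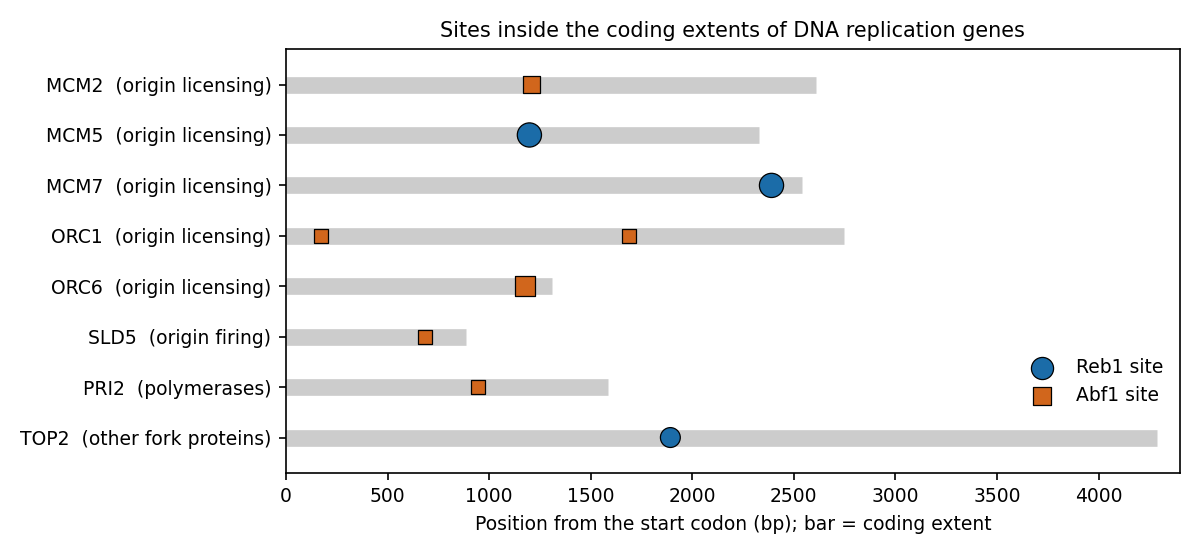
Position in bp from the start codon of each Reb1 (circles) and Abf1 (squares) site inside the coding extent (grey bars) of a replication gene, with larger symbols for sites listed in more rows. Of the 8 genes shown, 5 are licensing genes, and the largest symbols are the Reb1 sites of MCM5 and MCM7, in 5 rows each.

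A further list of replication-related genes that are not in the set was counted in the same way. Of 35 names, 34 were found in the annotation, among them nucleotide supply, S-phase kinase, checkpoint, RNase H2, helicase and alternative loader genes. Reb1 sites lay upstream of 2 of the 34 (5.88%, 0.720 to 19.7), against 12.5% of all genes. The 2 genes were CDC21, the thymidylate synthase gene, and RNR1, the large subunit gene of ribonucleotide reductase. The CDC21 site, with a score of 11.81, was at the limit, 500 bp upstream. Positions are uncertain by 1 bp, so this site could fall outside. The upstream neighbour of CDC21, UFE1, is divergent. The RNR1 site, on chromosome V, lay 426 bp upstream with a score of 11.28, and the neighbour ARG56 is in tandem. An Abf1 site lay upstream of 1 of the 34 (2.94%, 0.0744 to 15.3), against 13.5% of all genes. The gene was CTF18, which encodes a subunit of an alternative clamp loader. Its site was 98 bp from the CTF18 start codon, scored 10.93 and stood in 2 rows. SEC14 is the divergent upstream neighbour of CTF18. With 3 of 34 genes (8.82%, 1.86 to 23.7) the interval for a site of either factor ended just below the 24.7% of all genes, and the genes were chosen with earlier results of these data known.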

How the data were processed

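Chromatin was assembled by salt gradient dialysis, incubated with factor and remodeler, crosslinked, cut with MNase and pulled down through the Strep tag, per the labels' protocols. Groups came from sample titles. For the pulldowns, track names in the descriptions follow the replicate number rather than the factor of the title. No result here uses the sample groups, and which samples gave a site is not stated. The score of each site was deposited by the authors with no definition. The submitters' processing notes name Bowtie, sacCer3 and R64 without a role. Motif scanner, peak caller, thresholds and pooling are named in no source used here, nor is it said whether starts count from 0 or 1, so positions are uncertain by 1 bp.

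Identical rows, 2808 for Reb1 and 3699 for Abf1, were merged into distinct sites. Each site centre was placed against RefSeq R64 gene models, which are coding extents, with strand read from the systematic name. All 55 names matched. Every member with a site was named. No sequence is printed, since no genome was used here. No gene-set test was run. The members, classes and lists were chosen with earlier results of these data known. The distance rule was checked on planted site centres, which does not test how starts are counted or how strand is read. Alternatives were windows of 300 and 1000 bp, sites at or above the median score, sites in at least 2 rows, the nearer gene of a pair, intergenic sites, and chromosomes V to IX. Software versions were scipy 1.17.1 for intervals, matplotlib 3.10.9 for figures, and pandas 2.3.3 with numpy 2.4.6 under Python 3.11.15.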

Additional observations from a re-analysis of the deposited data

How the results depend on the processing

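Counts were taken as changed beyond a factor of 1.5, and medians, which rest on 2 to 10 sites, at any change. With 1000 bp upstream, Reb1 sites were present at 9 genes and Abf1 sites at 8, both factors at 2, and either factor at 5 polymerase and 2 clamp genes. Of all genes, 16.3% had Reb1, 18.7% Abf1, 3.58% both factors and 31.5% either factor at that width. The median distances were then 460 bp for Reb1 and 449.5 bp for Abf1, which follows from the wider window, and the Abf1 median score was 12.93. With 300 bp, 1 licensing gene had a site, with median distances of 198 bp for Reb1 and 140.5 bp for Abf1 and median scores of 12.76 and 13.37. With sites at or above the median score, Reb1 was present at 2 genes with a median score of 13.71 at 195 bp, and either factor at 1 licensing and 0 firing genes. With sites in at least 2 rows, Abf1 was present at 3 genes, with a median of 247 bp and a score of 13.25, either factor at 0 firing genes, and the Reb1 medians were 203 bp and 12.87. With the nearer gene of a pair, 1 licensing gene was left, with medians of 198 bp and 12.76 for Reb1 and 140.5 bp and 13.37 for Abf1. With intergenic sites, the Abf1 medians were 140.5 bp and 13.42. Counting to the nearest start codon of any gene, chosen after seeing the data, put the Reb1 median at 155 bp and left the Abf1 median at 150 bp. On chromosomes V to IX each factor was present at 0 of 7 genes, against 13.3% of all genes there for Reb1 and 11.8% for Abf1. For a site of either factor, the share of all genes was 24.7% in the main setting. It was 18.3% with 300 bp, 16.1% at or above the median score, 20.4% in at least 2 rows and 19.7% for the nearer gene. The other counts stayed within the factor of 1.5 and the other medians were identical. No paired analysis was possible because the site lists carry no sample or replicate.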
